A study of Mus musculus with 16 samples.

Results

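The comparison described here is that of hypothalamic Esr1 mutants with their controls after a long high-fat diet (HFD), in the liver. It rests on 8 of the 16 liver libraries of the study, 4 from mutants and 4 from controls, chosen by the genotype and diet in their labels. Controls (Esr1fl/fl) carry a floxed allele of Esr1, the gene of oestrogen receptor alpha. Mutants (Esr1Nkx2-1Cre) carry the same allele and a Cre recombinase expressed from Nkx2-1, a gene of the ventral forebrain and hypothalamus. All mice were females of 27 weeks on a mixed CD-1 and 129P2 background and had been on HFD for 17 weeks, and the other 8 libraries are the same genotypes on chow. The question behind the comparison is whether the liver, a large source of secreted proteins, differs between the genotypes under the diet on which the study followed the bone mass of the mutants. The study describes the loss of the receptor in the hypothalamus, and loss in other tissues was not examined here. Liver Esr1 therefore does not test the genotype label.

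Values are size-factor-adjusted abundances on a TPM-like scale, which corrects for transcript length. Differences are given as log2(value + 1), mutant minus control, and this scale understates the change of genes with low values. The table keeps no read depth, so precision comes only from the spread between libraries. Column totals of the 8 libraries ranged from 947756 to 1119703, and between 11834 and 12175 genes reached a value of 1. Hepatocyte markers summed to between 65566 and 90404 in controls and between 75872 and 107016 in mutants, and all 11 genes of that list were in the table. In whole liver, fewer cells of a type and less RNA per cell cannot be told apart.

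The library titles carry running numbers that fall into a lower and a higher series, whose meaning the labels do not give. The lower series holds 3 controls and 1 mutant (mutant replicate 1), and the higher series holds 3 mutants and 1 control (control replicate 4). More genes passed between the series than between the genotypes. With genotype in the fit, 3197 of 12704 genes (25.2%) passed an adjusted p of 0.05 between the series, 1718 higher (13.5%) and 1479 lower (11.6%) in the higher series. Mutant replicate 1 and control replicate 4 are each the only library of their genotype in their series. Traits of these libraries cannot be told apart from a series difference. Mutant replicate 1 had a median Spearman coefficient across genes of 0.948 with the other mutants and 0.977 with the controls. Control replicate 4 had 0.944 with the other controls and 0.967 with the mutants. The counts over all genes, and the gene calls made over both series, are therefore given with and without a term for the series, and the main counts also without mutant replicate 1.

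As background, mouse liver is one of the most sex-biased organs. The pattern of pituitary growth hormone release, pulsatile in males and more continuous in females, sets the level of many cytochrome P450 (Cyp), sulfotransferase (Sult) and major urinary protein (Mup) genes through the receptor Ghr and the factor STAT5b. Hypothalamic neurons that express oestrogen receptor alpha lie upstream of both gonadal and pituitary hormones. Liver also makes cholesterol and converts it to bile acids, with Cyp7a1 as the rate-limiting enzyme of that conversion.

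Across all 12704 genes, 2 (0.0157%) passed an adjusted p of 0.05 between mutants and controls on HFD. With the series as a term the count was also 2 (0.0157%), and both fits named Rps7 and Rps7-ps3. Rps7 encodes a protein of the small ribosomal subunit and lies at chr12:28630854-28635953 on the minus strand (mm10). Rps7-ps3 is a transcribed processed pseudogene at chrX:152909505-152910155, also on the minus strand. Its transcript of 651 bases aligned to an Rps7 transcript of 954 bases with 4 mismatches, an identity of 99.4%, and 3 of the 4 lie in the 585 coding bases. Of its 621 stretches of 31 bases, 523 also occur in the Rps7 transcript. The stretches around the 3 coding mismatches are shown because they are where reads of the 2 genes can be told apart within the coding sequence. Capitals mark the base that differs, and positions count from 1 at the first base of the Rps7 coding sequence, with the Rps7 base written first. The substitutions are T26G, G48A and G123T.
Rps7 chr12:28635617-28635641 (minus strand): gcgccaagatcgTgaagcccaatgg
Rps7-ps3 chrX:152910083-152910107 (minus strand): gcgccaagatcgGgaagcccaatgg
Rps7 chr12:28635595-28635619 (minus strand): tggcgagaagccGgacgagttcgag
Rps7-ps3 chrX:152910061-152910085 (minus strand): tggcgagaagccAgacgagttcgag
Rps7 chr12:28635428-28635452 (minus strand): ggcgcagctgcgGgaactcaacatc
Rps7-ps3 chrX:152909986-152910010 (minus strand): ggcgcagctgcgTgaactcaacatc

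Rps7 values were 20.3, 19.5, 24.8 and 34.3 in the 4 controls on HFD and 206, 187, 161 and 152 in the 4 mutants. The groups were far apart, and mutant replicate 1 lay with the other mutants. Rps7 rose by 2.81 on the log2 scale (SE 0.169, limma adjusted p = 3.86e-07). In the fit with the series it rose by 2.73 (SE 0.195, adjusted p = 4.13e-05). Rps7-ps3 stood at 460, 426, 423 and 339.1 in controls and at 230, 195, 181 and 157 in mutants, and fell by 1.11 (SE 0.141, adjusted p = 0.0056) or by 0.93 with the series term (adjusted p = 0.0455). The series-term call of Rps7-ps3 was lost whichever of the 8 HFD libraries was left out (adjusted p between 0.0712 and 0.5998), and that of Rps7 was kept in all 8 fits. Added together, both genes came to 437 ± 45.2 for controls and to 367 ± 54.8 for mutants (SD, n = 4 each), and these sums overlapped between the groups. Rps7 made up between 4.22% and 9.18% of that sum in controls on HFD and between 47.1% and 49.1% in mutants. On chow the share was between 4.78% and 5.58% in controls and between 45.9% and 49% in mutants, so it separated all 8 mutants of the study from all 8 controls. Because the transcripts are nearly identical, how the estimated abundance is divided between the 2 genes is uncertain. Nkx2-1, the gene for which the Cre is named, lies on the same chromosome as Rps7, at chr12:56531958-56536908 on the minus strand. Where the Cre itself lies is not given in the sources used here. Whether position bears on the Rps7 values was not tested.

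**Figure D1:**
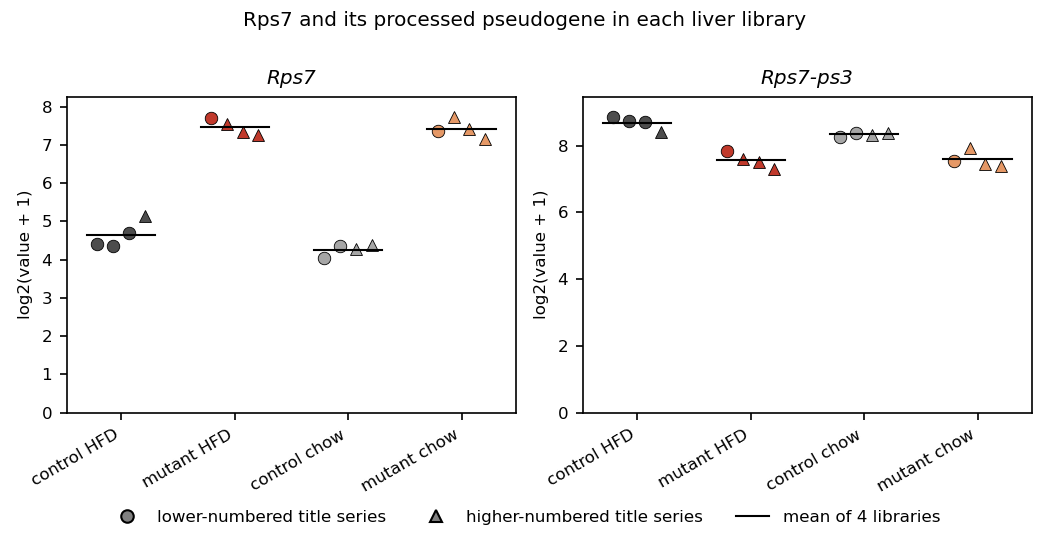
Values of Rps7 and Rps7-ps3 as log2(value + 1) in all 16 libraries, 4 in each group, with circles for the lower and triangles for the higher title series and lines for group means. Every mutant lies above every control for Rps7 and below every control for Rps7-ps3 on both diets.

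At an unadjusted p under 0.05, 606 genes (4.77%) were higher and 486 (3.83%) lower in mutants on HFD. With the series as a term these became 297 (2.34%) and 271 (2.13%). These 4 shares are the background for each count of list members at that threshold. The 2 groups did not overlap for 176 genes (1.39%) that were higher and 166 (1.31%) that were lower in mutants. Within each series apart, mutants lay on the same side of the controls for 787 genes (6.19%) that were higher and 843 (6.64%) that were lower. Each series sets 1 library of a genotype against 3 of the other, so genes can reach this without a genotype difference. Separation of the libraries is therefore given as a description, and no gene is called from it. The median difference over all genes was 0.016, and 0.0035 with the series term. When libraries were rescaled to a common total without the 20 most abundant genes, the unadjusted split became 1027 higher and 191 lower, and the median over all genes became 0.099.

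The genotype difference was then looked at without mutant replicate 1, and in each series apart; this was chosen after the data had been seen. A reference for the mutant state was taken from the chow livers alone, where 6 genes passed an adjusted p of 0.05 in a fit of the 8 chow libraries, all higher in mutants. They were Rps7, Gm7086, Ugt2b37, Cyp17a1, Tafa2 and Zfp125. For all 6, mutants 2, 3 and 4 on HFD lay on the mutant side of the midpoint between the chow groups. The 4 controls on HFD lay on the control side for all 6. Mutant replicate 1 lay on the mutant side for 1 of the 6, Rps7, and on the control side for the other 5. For Zfp125 it was nonetheless at 0.627, above every control on HFD (at most 0.167) and on chow (at most 0.255). Outside the 6, Rps7-ps3, Sult1e1 and Hspb1, picked after their values were seen, separated the genotypes on chow. For these genes mutant replicate 1 lay with the other mutants, beyond every HFD control.

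Cyp17a1, the enzyme that converts pregnenolone and progesterone to androgen precursors, shows the pattern. Its values were 3.002, 4.74, 2.47 and 0.881 in controls on HFD and 1.77, 39.5, 74.8 and 60.7 in mutants. The first mutant thus lay within the controls and the other 3 far above them. In chow livers Cyp17a1 was between 1.63 and 7.22 in controls and between 20.2 and 33.0 in mutants. In the higher series alone (3 mutants and 1 control) Cyp17a1 rose by 4.93 (SE 0.402, limma adjusted p = 4.85e-04), while in the lower series its difference was -0.63 with the same SE (adjusted p = 1). The difference between the series was 5.57 (SE 0.568, adjusted p = 0.00576), which was 1 of 3 genes past the threshold for that test. The other 2 were Gm12895, a processed pseudogene, and Gm12896, which carry identical values and stood at 16.3 in control replicate 4 and between 157 and 307 in the 3 mutants of its series, with the other controls between 1618 and 2022 and mutant replicate 1 at 1525. In the lower series alone 2 genes passed, Rps7 and Ribc1, a gene of ciliary microtubules that stood at 10.01 in mutant replicate 1 and between 1.55 and 2.03 in the other 7 HFD libraries.

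Gm7086, a transcribed pseudogene in the annotation, was listed at 0, 0.434, 0.483 and 0.470 in controls on HFD and at 0, 133, 836 and 249 in mutants. On chow it was at most 2.85 in controls and between 178 and 646 in mutants. Ugt2b37, a glucuronosyltransferase, was between 0.106 and 0.609 in controls, at 0.260 in mutant replicate 1 and at 10.1, 6.36 and 6.36 in the others. The same 3 mutants thus carried all of the signal for these genes.

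**Figure D2:**
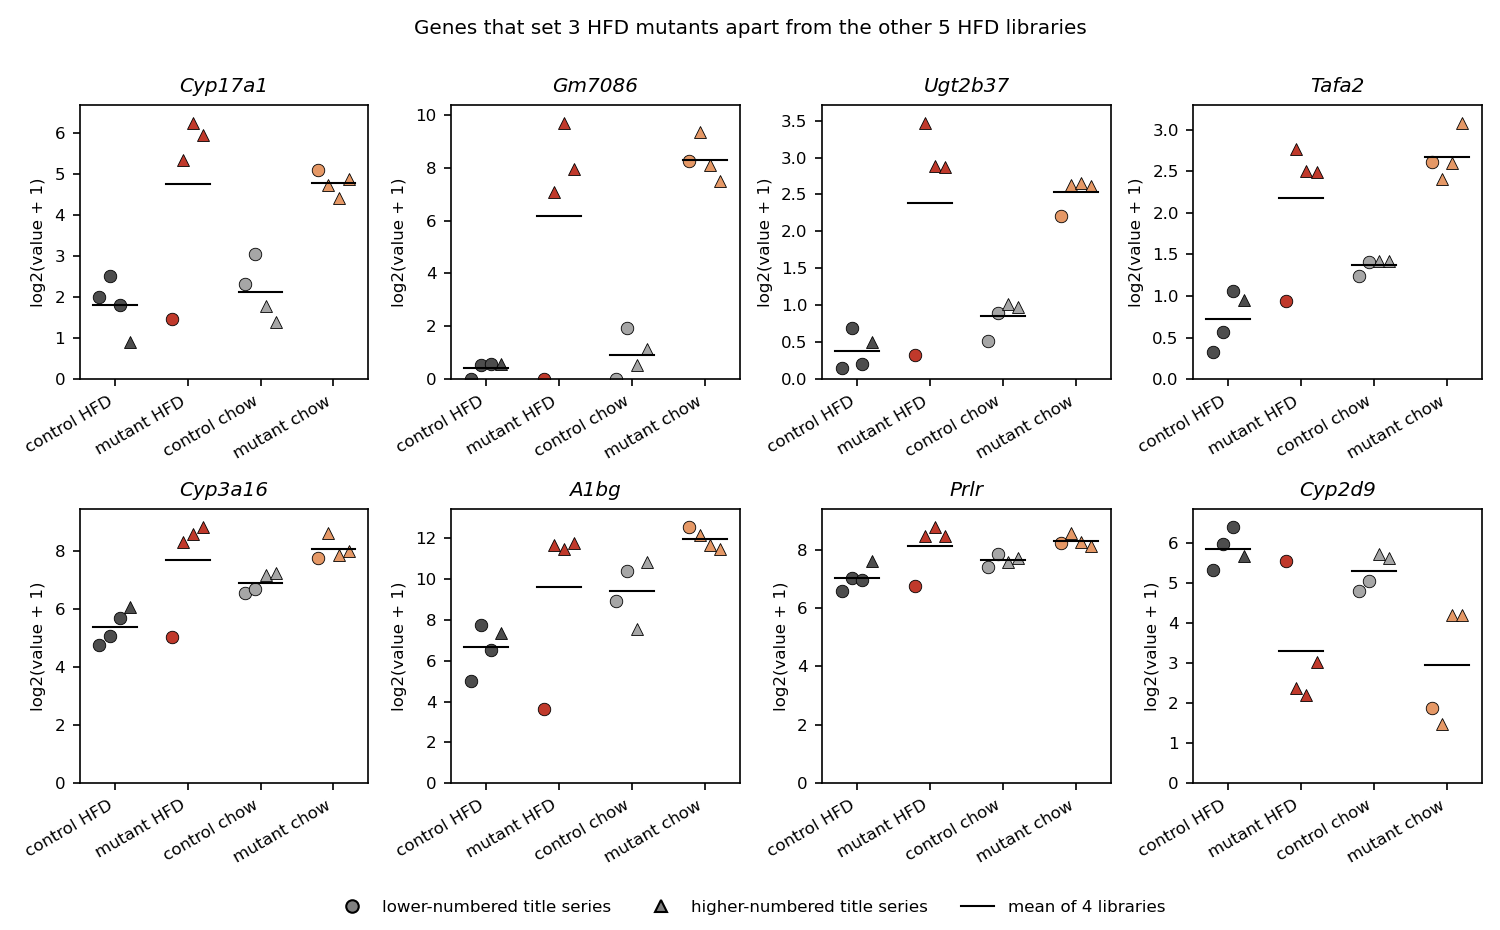
log2(value + 1) of 8 genes, chosen after their values were seen, in all 16 libraries, with circles for the lower and triangles for the higher title series and lines for means of 4. For each gene the single lower-series mutant on HFD lies among or below the HFD controls, whereas the 3 other HFD mutants lie above every HFD control, or below every one for Cyp2d9.

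When mutant replicate 1 was left out, 102 genes (0.803%) rose and 39 (0.307%) fell in mutants on HFD at an adjusted p of 0.05. In 137 of these 141 genes the 3 remaining mutants lay beyond all 5 other HFD libraries. The genes were called on these same mutants against the HFD controls, so their place beyond the controls follows largely from that choice. Only the place of mutant replicate 1 was not used in it. Over all genes, the 3 mutants lay above the other 5 libraries for 928 genes (7.3%) and below them for 740 (5.82%). For 36 of the 141 genes all 4 chow mutants lay beyond all 4 chow controls in the same direction, and for 2 in the opposite direction. Over all genes, the chow mutants lay above all chow controls for 1.95% and below them for 1.09%. These 3 mutants are nearly all of the higher series, so genotype and series are largely confounded once the first mutant is left out. With the series as a term, the genotype difference in this subset sets the 3 mutants against control replicate 4 alone. Differences from that fit are therefore given by size only, and no gene is called from it. The 3 mutants lay beyond the other 5 libraries for Cyp17a1, Sult2a1, Ugt2b37, Gm7086, Cyp3a16 and Nt5e (higher) and for Nox4 and Dsg1c (lower). For Rps7 mutant replicate 1 was high as well, and for Gm12895 the difference in that fit rests on control replicate 4.

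Esr1 itself, at chr10:4611593-5005614, had values of 7.52, 6.14, 8.09 and 7.07 in control livers on HFD. In mutant livers it stood at 6.42, 22.9, 21.1 and 20.5, so 3 of the 4 mutants were above every control and the first was not. The difference was 1.06 (SE 0.344), with an exact two-sided permutation p of 0.114, where the smallest p that 4 against 4 allows is 0.0286. With the series term it was 0.67 (SE 0.350). Esr1 rose without mutant replicate 1 by 1.46 (limma adjusted p = 0.01445), and by 1.48 against control replicate 4 alone, which is what the series term leaves there. On chow the groups overlapped, with a difference of 0.17. Fst encodes the activin antagonist follistatin and was of interest to the study as a gene raised in the arcuate nucleus of mutants. In liver on HFD, Fst stood at 8.32, 2.80, 1.85 and 2.63 in controls and 9.64, 5.45, 4.86 and 3.22 in mutants. The groups overlapped, with a difference of 0.55 and an exact permutation p of 0.257.

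Among the 12 tested hormone receptors, 3 were higher at an unadjusted p under 0.05 (background 4.77%), namely Prlr, Esr1 and Ghr, and none was lower (background 3.83%). With the series term none passed in either direction. Prlr, the prolactin receptor, was at 94.7, 129, 124 and 195 in controls and at 108, 355, 444 and 357 in mutants. Ghr, the growth hormone receptor, was at 272, 318, 311 and 391 in controls and at 299, 502, 676 and 470 in mutants. Again mutants 2, 3 and 4 exceeded every control, and mutant 1 did not. Their differences in the series-term fit were 0.44 (Prlr, unadjusted p = 0.0596) and 0.24 (Ghr, unadjusted p = 0.120). Without mutant replicate 1, Prlr rose by 1.54 (limma adjusted p = 0.00149) and Ghr by 0.76 (adjusted p = 0.01705). With the series term, that subset sets the mutants against control replicate 4 alone, and Prlr differed by 0.97 and Ghr by 0.47. On chow, too, every mutant exceeded every control for both: Prlr was between 170 and 231.6 in controls and between 278 and 377 in mutants. Lifr, the receptor of leukaemia inhibitory factor, which was no member of that list, had between 29.9 and 78.5 in controls on HFD, 36.7 in mutant replicate 1 and between 278 and 415 in the other 3 mutants.

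Of 17 tested genes of growth hormone signalling, 1 was higher (Ghr) and 1 lower (Socs3) at an unadjusted p under 0.05, and none with the series term. For 6 of the 17, mutants 2, 3 and 4 lay above all other HFD libraries (background 7.3%), and for 2 below (background 5.82%). The list's median was 0.28 in the higher series and -0.02 in the lower. Socs3, a feedback inhibitor of cytokine receptors, was at 16.9, 16.6, 7.36 and 3.78 in controls and 6.40, 2.45, 2.85 and 3.71 in mutants, a difference of -1.19 (unadjusted p = 0.0255). Igf1, the main growth-hormone-driven secreted factor of liver, was between 427 and 588 in controls and between 388 and 604 in mutants, a difference of 0.09 with full overlap. Stat5b, between 22.8 and 24.9 in controls and 18.8 and 23.7 in mutants, differed by -0.18 (unadjusted p = 0.114).

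The list of 35 female-biased liver genes had a median difference of 0.71, against 0.016 over all genes, and of 0.35 with the series term. Of its members, 14 were higher (background 4.77%) and 1 was lower (background 3.83%) at an unadjusted p under 0.05. Adding the series left 6 higher (background 2.34%) and none lower (background 2.13%). In the test between the series, 14 of the 35 were higher in the higher series (background 13.5%). The mean log2(value + 1) of the list was 5.31 in mutant replicate 1 and 6.73, 6.70 and 7.14 in the other mutants. It was 5.06, 5.70 and 5.81 in the lower-series controls and 5.81 in control replicate 4. The series difference of the list thus lay mainly between mutant replicate 1 and the other mutants. With mutant replicate 1 left out, 12 members rose and none fell, where the background is 0.803% and 0.307% of all genes. For 23 of the 35, mutants 2, 3 and 4 lay above all 5 other libraries (background 7.3%), and for 3 they lay below (background 5.82%). The list's median was 0.74 in the higher series and -0.09 in the lower.

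The female-predominant Cyp3a genes were among the largest of these differences. Cyp3a16 was at 26.0, 32.9, 51.1 and 65.6 in controls and at 31.7, 320, 387 and 460 in mutants. Its difference was 2.30 (SE 0.616, unadjusted p = 0.00189) and 1.19 with the series term (unadjusted p = 0.0170). Without mutant replicate 1 Cyp3a16 rose by 3.19 (limma adjusted p = 6.07e-05), and by 2.54 against control replicate 4 alone. A1bg, which encodes a plasma glycoprotein, was at 31.4, 216, 91.7 and 165 in controls and at 11.4, 3227, 2846 and 3484 in mutants. Cyp2c69 was at 7.84, 23.7, 27.8 and 35.5 in controls and at 7.78, 506, 496 and 295 in mutants. Without mutant replicate 1, A1bg rose by 4.96 (limma adjusted p = 0.00297) and Cyp2c69 by 4.27 (adjusted p = 9.96e-04). Against control replicate 4 alone, the differences of these 3 mutants were 4.26 for A1bg and 3.53 for Cyp2c69. Not every member took this course. Cyp2b13, a female-predominant Cyp, was between 419 and 522 in controls, at 514 in mutant replicate 1 and between 92.1 and 120 in the other mutants, so these 3 were lower than every other library. Sult3a1 and Sult3a2 were low in mutants 2 and 3 only, with Sult3a1 at 99.0 and 49.9 against 1639 in mutant 4 and between 434 and 940 in controls.

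The 21 tested male-biased genes had a median difference of -0.35, and of -0.49 with the series term. At an unadjusted p under 0.05, 5 were lower (background 3.83%) and 1 higher (background 4.77%), and with the series term 2 were lower (background 2.13%) and none higher (background 2.34%). For 8 of the 21 the same 3 mutants lay below all other HFD libraries (background 5.82%), and for none above (background 7.3%). Mup1, a pheromone-binding urinary protein gene, was at 1249, 1617, 1275 and 3645 in controls and at 1648, 101, 99.3 and 167 in mutants. Cyp2d9, a male-predominant Cyp, was at 39.0, 62.4, 84.3 and 50.2 in controls and at 45.6, 4.21, 3.602 and 7.22 in mutants. Its difference was -2.56 (SE 0.697, unadjusted p = 0.00219) and -1.75 with the series term (unadjusted p = 0.0233), and without mutant replicate 1 it fell by 3.31 (limma adjusted p = 0.01245). In that subset the difference of Cyp2d9 against control replicate 4 alone was -3.14. Nudt7, a peroxisomal coenzyme A diphosphatase, was at 167, 115, 122 and 190 in controls and at 97.4, 144, 116.9 and 100.2 in mutants, with a series-term difference of -0.55 (unadjusted p = 0.0151). The Mup genes share long stretches of sequence, so the split between them is uncertain.

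**Figure D3:**
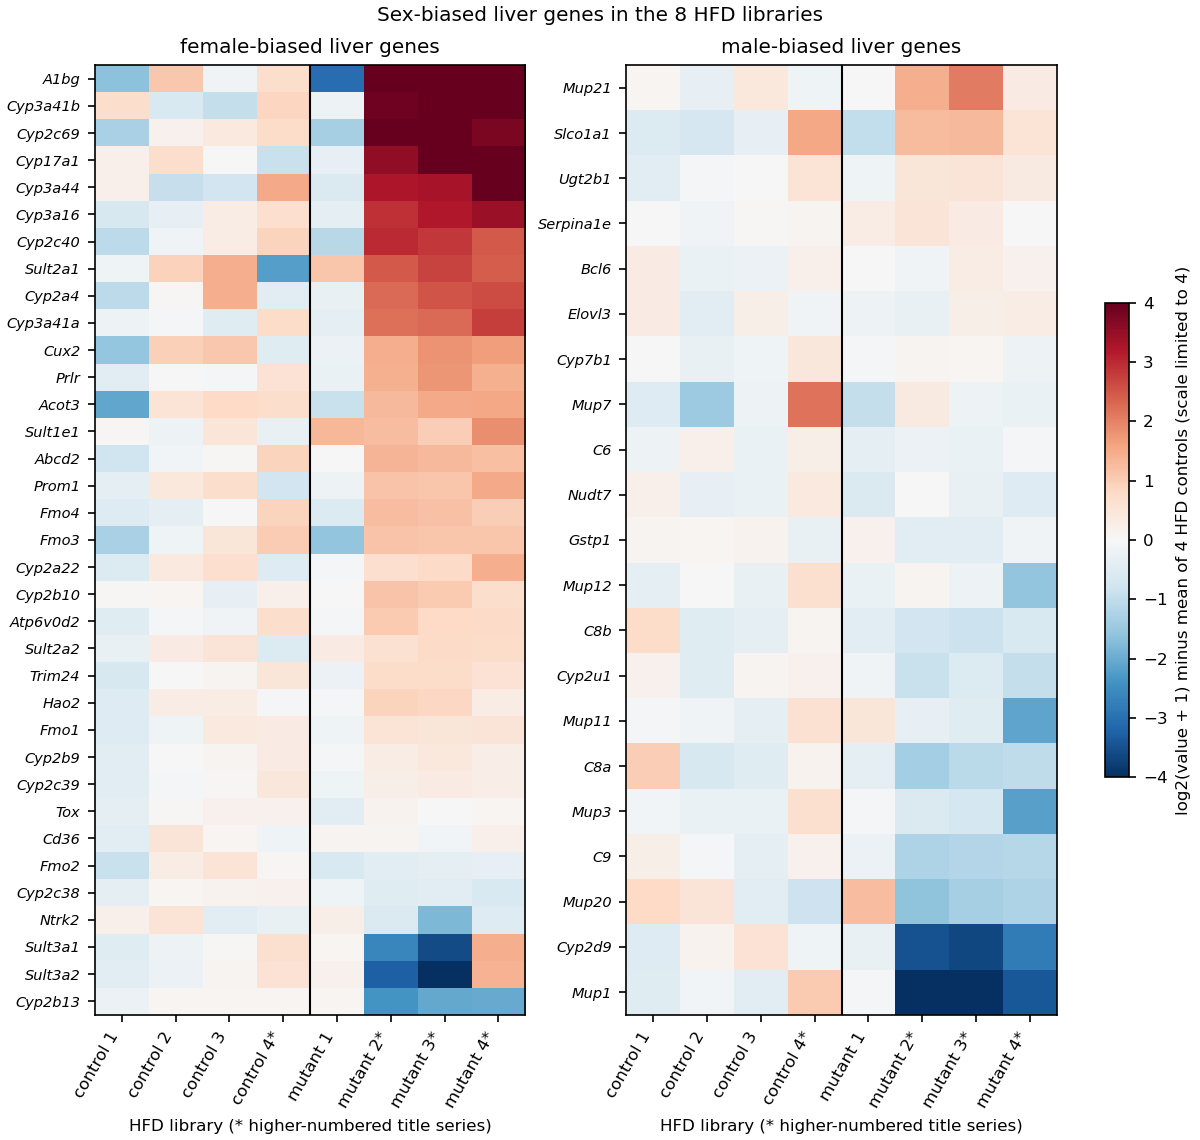
Heat map of 35 female-biased and 21 male-biased liver genes (rows) in the 8 HFD libraries (columns, asterisk for the higher title series), as log2(value + 1) minus the mean of the 4 HFD controls, with colours limited at 4 in either direction. Mutants 2, 3 and 4 stand apart for many genes of both panels, with A1bg and Cyp2c69 at the red end and Cyp2d9 and Mup1 at the blue end, and mutant 1 does not.

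Sulfotransferases make steroids, bile acids and xenobiotics water-soluble. Of 15 tested, 4 were higher (background 4.77%) and 1 lower (background 3.83%) at an unadjusted p under 0.05. The series-term fit had 3 higher (background 2.34%) and 1 lower (background 2.13%). Sult2a1, which sulfates hydroxysteroids and bile acids, was at 143, 308, 439 and 34.1 in controls and at 346, 890, 1049 and 864 in mutants. Control replicate 4 was the lowest and mutant replicate 1 lay within the controls. The difference was 2.17 (SE 0.581, unadjusted p = 0.00193), and 2.55 with the series term (SE 0.689, unadjusted p = 0.00267). Sult1e1, the oestrogen sulfotransferase, was low throughout, at 0.356, 0.137, 0.850 and 0.0637 in controls and 2.34, 2.09, 1.61 and 3.79 in mutants. Here mutant replicate 1 lay with the other mutants and the groups did not overlap, with a difference of 1.35 (unadjusted p = 0.00191) and of 1.45 with the series term. On chow the difference in Sult1e1 was 2.62. Sult2a2 was between 146 and 305 in controls and 270 and 367 in mutants, a difference of 0.61 (unadjusted p = 0.0147) and of 0.70 with the series term (unadjusted p = 0.0208). Sult2a7, named after its values were seen, was the member that was lower, at 44.8, 23.6, 9.67 and 11.4 in controls against 9.53, 0.441, 1.23 and 0.766 in mutants.

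Several genes were lower in all 4 mutants. Hspb1, a small heat shock protein at chr5:135887919-135889563, was at 77.1, 51.1, 50.4 and 20.8 in controls and at 16.3, 6.15, 9.36 and 9.10 in mutants. The groups did not overlap, and the lowest control was control replicate 4. The difference was -2.11 (SE 0.348, limma adjusted p = 0.0812), and adding the series to the fit made it -1.52 (adjusted p = 0.279). Hspb1 passed the threshold without mutant replicate 1 (adjusted p = 0.00422) and without control replicate 4 (adjusted p = 0.00297). With the series in the fit, each of these subsets leaves 1 library of a genotype in the comparison, so only sizes are given. Hspb1 differed by -1.26 in the higher-series mutants against control replicate 4. In mutant replicate 1 against the lower-series controls it differed by -1.78. Its difference on chow was -1.48. Etfbkmt, a lysine methyltransferase of the mitochondrial electron transfer flavoprotein, was at 32.5, 29.4, 28.0 and 29.99 in controls and at 11.6, 14.5, 15.2 and 15.7 in mutants. The spread within each group was small and the groups lay well apart, with a difference of -1.03 (SE 0.192, adjusted p = 0.2097) and of -1.12 with the series term (SE 0.196, adjusted p = 0.228). On chow Etfbkmt differed by -0.18, and the interaction of genotype and diet was -0.84 (SE 0.272, unadjusted p = 0.00715), and also -0.84 with the series terms (unadjusted p = 0.0073).

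Gsn, which encodes the actin-severing protein gelsolin, was at 141, 102, 66.4 and 43.6 in controls and 55.3, 7.02, 7.48 and 8.40 in mutants. Mutant replicate 1 was within the controls, and the difference was -2.56 (unadjusted p = 1.72e-04) or -1.60 with the series term (unadjusted p = 8.06e-04). Slc10a2, an apical sodium-dependent bile acid transporter, was at 9.75, 13.4, 9.21 and 13.2 in controls and 6.31, 6.44, 3.36 and 2.65 in mutants, with no overlap and a difference of -1.17 (SE 0.253, adjusted p = 0.346) or of -1.10 with the series term (adjusted p = 0.923). Tmem141 differed by -1.22 and the pseudogenes Gm37313 and Gm12276 by -1.49 and -1.25, all with unadjusted p under 0.05 in both fits.

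The genes named for being higher in mutants of both series were, after Rps7, Gm48592, Zfp125, Adgrv1, Nt5e, Ccdc74a, Sult1e1 and Pls1. None passed the adjusted threshold in either fit. Nt5e, the ecto-nucleotidase CD73, was at 9.54, 8.89, 9.35 and 12.2 in controls and 11.5, 41.0, 43.7 and 30.6 in mutants, a difference of 1.42 (SE 0.322) and of 0.92 with the series term. Adgrv1, a large adhesion G-protein-coupled receptor, was at 3.18, 2.53, 2.73 and 4.18 in controls and 4.36, 9.06, 11.2 and 6.58 in mutants. Its difference was 1.03 on HFD and 0.09 on chow, with an interaction of 0.94 (unadjusted p = 0.00721), or of 0.63 with the series terms (unadjusted p = 0.0274). Zfp125, which the annotation lists as a transcribed pseudogene, was at most 0.167 in controls and was 0.627, 3.59, 1.41 and 2.29 in mutants, and it differed by 1.32 on HFD and by 1.52 on chow. The other 3 were low or noisy. Ccdc74a was between 0.231 and 2.82 in controls and 1.93 and 5.74 in mutants, Pls1, an actin bundler, between 1.33 and 2.38 and between 2.13 and 8.06, and the pseudogene Gm48592 between 0 and 2.05 and between 1.95 and 7.82.

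**Figure D4:**
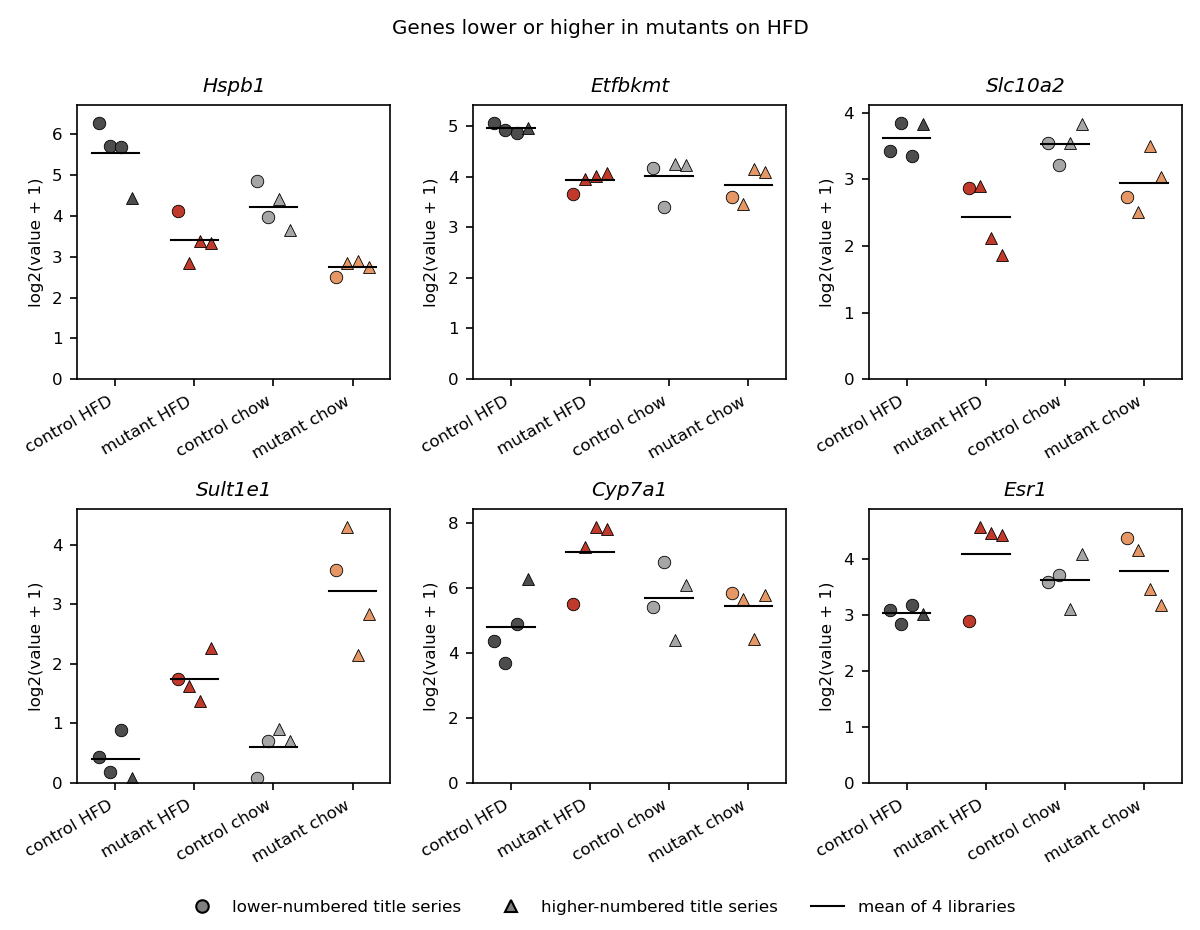
log2(value + 1) of 6 named genes in all 16 libraries, with circles for the lower and triangles for the higher title series and lines for means of 4. Hspb1, Etfbkmt, Slc10a2 and Sult1e1 separate the 4 HFD mutants from the 4 HFD controls, whereas for Cyp7a1 and Esr1 the lower-series mutant falls within the range of the controls.

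Cyp7a1, the rate-limiting enzyme of bile acid synthesis at chr4:6265612-6275633, was at 19.7, 12.1, 28.8 and 77.1 in controls and at 45.1, 152, 239 and 228 in mutants. Within each series the mutants were above the controls, but over both series the groups overlapped because control replicate 4 exceeded mutant replicate 1. The difference was 2.32 (SE 0.624, unadjusted p = 0.00203) and 1.29 with the series term (SE 0.489, unadjusted p = 0.0204). On chow it was -0.25, and the interaction was 2.56 (unadjusted p = 0.0107) but 1.36 with the series terms (unadjusted p = 0.0593). Without mutant replicate 1 Cyp7a1 rose by 2.85 (limma adjusted p = 0.0321), and by 1.38 against control replicate 4 alone. Nr0b2, the nuclear receptor SHP that represses Cyp7a1, was at 86.2, 98.2, 108 and 32.4 in controls and 78.1, 12.1, 20.9 and 13.2 in mutants, a difference of -1.65 (unadjusted p = 0.0119) and of -0.69 with the series term (unadjusted p = 0.179). Of the 22 genes of bile acid synthesis and transport, 3 were higher (background 4.77%) and 2 lower (background 3.83%) at an unadjusted p under 0.05. In the fit with the series 1 was higher (background 2.34%) and none lower (background 2.13%). The median of the list was -0.01. Cyp8b1, which sets the cholic acid share, was between 37.6 and 164 in controls and between 75.8 and 121 in mutants.

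All 20 genes of cholesterol synthesis had a positive difference, with a median of 0.99, and 4 were higher at an unadjusted p of 0.05 (Cyp51, Sqle, Nsdhl and Sc5d), where the background is 4.77%. In the fit with the series the median was 0.30 and none passed, and 10 of the 20 were higher in the higher series when the series was tested beside genotype (background 13.5%). Sqle, squalene epoxidase, was at 1.46, 3.66, 1.46 and 7.85 in controls and 1.87, 52.8, 33.9 and 5.57 in mutants. Mutant 1 lay within the controls, and mutants 2 and 3 were the highest. The difference in Sqle was 1.79 (unadjusted p = 0.0344) and 0.65 with the series term (unadjusted p = 0.351). The list's median was 1.02 in the higher series and -0.30 in the lower. The mean log2(value + 1) of the list was 4.29, 6.86, 6.40 and 5.33 in mutants and 4.48, 5.06, 4.66 and 5.17 in controls. Mutants 2 and 3 were thus the highest, and mutant 4 lay near control replicate 4. Nsdhl, a sterol dehydrogenase of the pathway, rose by 2.20 without mutant replicate 1 (limma adjusted p = 0.0447). Nsdhl in that subset differed by 1.58 against control replicate 4 alone.

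The 13 genes of SREBP2 control and cholesterol uptake had a median of 0.24, and 0.02 with the series term, with 1 higher (Scap, 0.54, unadjusted p = 0.0166). The 23 lipogenic genes had a median of 0.27, and -0.04 with the series term. Dgat1, a triglyceride-forming acyltransferase, was the 1 member past an unadjusted p of 0.05 (-0.37, unadjusted p = 0.0199). When mutant replicate 1 was left out, Acacb, an acetyl-CoA carboxylase, rose by 1.998 (limma adjusted p = 0.0143), the desaturase Fads1 rose by 1.05 (adjusted p = 0.0115) and Dgat1 fell by 0.52 (adjusted p = 0.0439). Against control replicate 4 alone, the differences there were 2.06 for Acacb, 0.79 for Fads1 and -0.28 for Dgat1. Fasn, fatty acid synthase, was between 79.2 and 154 in controls and between 56.9 and 260 in mutants. Srebf1, the lipogenic transcription factor, was at 474, 374, 325.1 and 292 in controls and 286, 288, 224 and 282 in mutants, a difference of -0.42 (unadjusted p = 0.119) although the groups did not overlap. Lipid droplet genes (17 tested, median -0.13) and fatty acid oxidation genes (27 tested, median -0.02) had at most 1 member past an unadjusted p of 0.05 in either direction, and none with the series term. Glucose handling had a median of -0.05 over 22 genes and the apolipoproteins -0.09 over 21, with 1 higher and 1 lower, and none, respectively.

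The 23 tested genes of ER protein folding and heat shock had a median of -0.32, and 21 of them had a negative difference. Of these, Hspb1 and Hsph1 (an HSP110 chaperone, difference -0.78, unadjusted p = 0.0128) passed an unadjusted p of 0.05, and with the series term Hspb1 alone did, when the median was -0.11. For 7 of the 23 the series differed, all lower in the higher series (background 11.6%). Hspa5, the main ER chaperone, was between 200.5 and 355 in controls and between 184 and 249 in mutants.

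Genes of the small ribosomal subunit had a median of -0.32 over 33 genes, of which 1 (Rps7) was higher (background 4.77%) and 7 were lower (background 3.83%) at an unadjusted p under 0.05. The series term made the median 0.01, and 2 were higher (Rps7 and Rps12, 0.41, background 2.34%) and none lower (background 2.13%), and 26 of the 33 were lower in the higher series (background 11.6%). In the fit without the series term 31 of the 33 had a negative difference, the exceptions being Rps7 and Rps18 (0.12).

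Among 27 tested secreted liver proteins linked to bone, 1 was higher at an unadjusted p under 0.05, Tnfrsf11b (osteoprotegerin, the decoy receptor that blocks osteoclast formation). It was at 1.67, 2.31, 1.85 and 4.10 in controls and 3.43, 4.19, 4.96 and 3.996 in mutants, a difference of 0.60 (unadjusted p = 0.0202) and of 0.33 with the series term (unadjusted p = 0.190). With the series term the member that passed was Lect2, a hepatocyte-secreted chemotactic factor, at 290, 289, 294 and 231.6 in controls and 311, 305, 306 and 257 in mutants (0.21, unadjusted p = 0.0482). Fgf21 was between 5.10 and 10 in controls and 5.56 and 9.88 in mutants. Ahsg, fetuin-A, was between 6285 and 8053 in controls and between 7712 and 8803 in mutants. Lcn2, lipocalin-2, was at 598 in control replicate 1 and between 28.3 and 97.7 in the other 7 libraries. None of the list passed the adjusted threshold without mutant replicate 1.

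Serpina1a, an alpha-1-antitrypsin gene, was between 2261 and 2828 in controls and between 2944 and 4154 in mutants, with no overlap, a difference of 0.41 (unadjusted p = 0.00984) and of 0.29 with the series term (unadjusted p = 0.0496). The 25 acute-phase genes had a median of -0.21 with none higher and 1 lower, against a median of 1.03 on chow. Interferon response genes (22 tested) and genes of macrophages and antigen presentation (22 tested) had none past an unadjusted p of 0.05. CAR and PXR targets had a median of -0.05 over 25 genes, with 1 higher (Slco1a4, 0.46) and 2 lower (Cyp3a11, -2.09, and Nr1i2, the gene of PXR, -0.30) at an unadjusted p under 0.05. The member past it in the fit with the series was Cyp2c54, at 113, 110, 73.8 and 294 in controls and 94.4, 41.6, 87.3 and 45.4 in mutants (series-term difference -1.22, unadjusted p = 0.0431). Circadian clock genes had a median of -0.06 over 20 with 1 lower, and matrix and stellate cell genes -0.05 over 18 with 1 higher.

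Markers of other cells were read beside these values. The 14 lymphocyte and neutrophil markers summed to between 18.0 and 40.7 in controls and between 31.7 and 161 in mutants, with mutant replicate 1 the lowest of the mutants. The neutrophil granule genes Ngp and Camp were at most 0.14 in the controls, at 0.149 in mutant replicate 1, and between 2.04 and 12.3 in the other 3 mutants, and the B-cell gene Ighm was between 6.14 and 8 in controls and between 10.3 and 24.2 in mutants. Ngp and Camp were thus highest in the same 3 mutants as the Cyp genes, whereas Ighm was above the controls in all 4. These 3 genes were picked after their values were seen. Of the 10 tested markers of this list, 7 had a positive and 3 a negative difference. Another B-cell gene, Cd79a, was among the negative ones (-0.37). The part of these cells in the results was not tested. Red blood cell markers summed to between 1695 and 6925 in controls and between 2665 and 5212 in mutants, and control replicate 4 was the lowest. Gallbladder and bile duct markers summed to between 37.9 and 78.0 and between 35.1 and 51.3, and Cldn4, Cftr and Tff2 had no row in the table used. Krt19, a bile duct keratin, was between 0.483 and 2.55 in controls and 0.751 and 0.836 in mutants. For adipose tissue Adipoq, Lep, Cfd, Retn and Cidea had no row in the table used, and the other 4 markers summed to between 1313 and 1832 in controls and between 1055 and 1687 in mutants. Endothelial markers summed to between 191 and 244 in controls and between 193 and 260 in mutants.

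The difference between the genotype effects on HFD and on chow was tested as an interaction. No gene passed the adjusted threshold in limma (smallest adjusted p = 0.895), and 535 genes had an unadjusted p under 0.05. With the series terms none passed (smallest adjusted p = 0.9996) and 446 had an unadjusted p under 0.05.

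**Figure D5:**
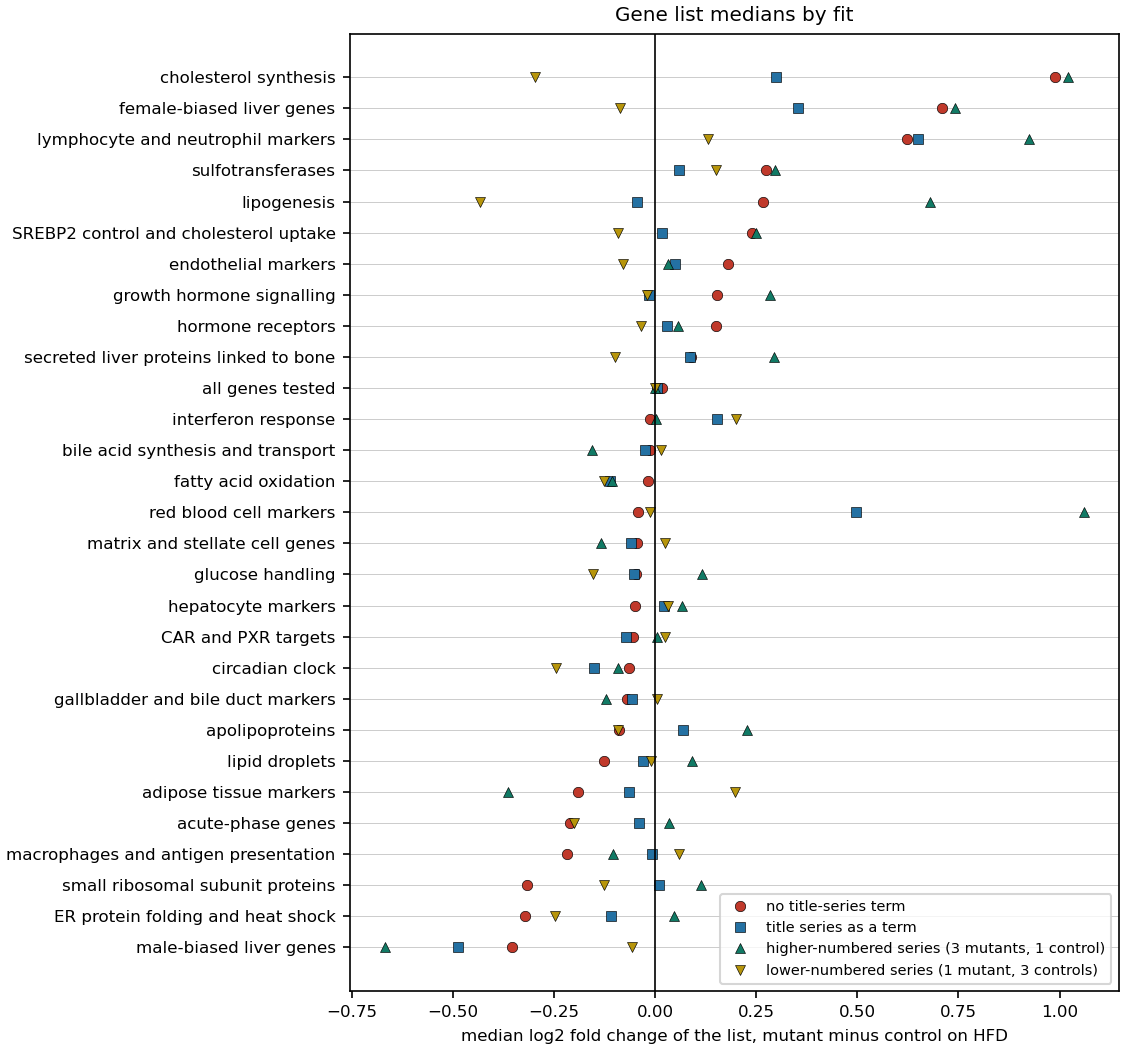
Median log2 difference, mutant minus control on HFD, of all tested genes and of each gene list, from the fit without a series term (circles), with the series as a term (squares), and within the higher (upward triangles) and lower (downward triangles) title series. Cholesterol synthesis runs from 1.02 in the higher series to -0.30 in the lower, and female-biased genes from 0.74 to -0.09, so the single lower-series mutant does not share these shifts. For cholesterol synthesis the list means were highest in mutants 2 and 3, and mutant 4 lay near control replicate 4.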

How the data were processed

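The authors assigned liver reads to mm10 transcripts with kallisto and tested genes with sleuth; tool versions and the annotation release are not given in the sources used here. The deposited signal is a TPM-like abundance adjusted by size factors, a unit inferred from its fractional values and unequal column totals. It keeps no depth, so no counting interval was computed.

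Libraries were grouped by their genotype and diet labels. Replicates were numbered in sample order. The labels do not say that each library is a separate mouse, so p-values measure the spread between these libraries. A gene was tested if 4 or more of the 16 libraries reached a value of 1 (12704 of 15544 genes). limma 3.58.1 (R 4.3.3) was fitted to log2(value + 1) of all 16 libraries with 4 group means and a mean-variance trend, then with indicators of the title series. P-values were adjusted over all genes by Benjamini-Hochberg, with a threshold of 0.05. Esr1 and Fst were also tested by exact two-sided permutation (70 arrangements). The fits were tested on simulated data.

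Genes were named if they were Esr1 or Fst, passed the threshold in either fit, were among at most 8 per direction with a log2 difference of at least 1 and mutants on the same side in both series, or were among at most 3 members per list with a series-term p under 0.05 and the same sign. Other genes were chosen after their values were seen. The members and lists were chosen with earlier results of these data known. Positions and sequences are from GENCODE M21 (GRCm38, that is mm10), which may not be the release the authors used, and 8 genes had no position. Some genes are not reported here. Alternatives are given at the end.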

Additional observations from a re-analysis of the deposited data

Results flagged for a closer look

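Among 58 groups of 4 libraries tested for a value far from the rest (Dixon's test at the 95% level), 8 held one. The values were not log-transformed, and the genes share the same libraries and were mostly named from them. The count is therefore not set against a rate by chance. In 3 cases the value was that of mutant replicate 1: Esr1 at 6.42 against 20.5 to 22.9 in the other mutants, Gsn at 55.3 against 7.02 to 8.40, and Cyp2d9 at 45.6 against 3.602 to 7.22. In 2 cases it was control replicate 4, with Pls1 at 2.38 against 1.33 to 1.502 in the other controls and Lect2 at 231.6 against 289 to 294. The remaining cases were Fst at 8.32 in control replicate 1 against 1.85 to 2.80, Ccdc74a at 2.82 in control replicate 3 against 0.231 to 0.502, and Lect2 at 257 in mutant replicate 4 against 305 to 311.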

How the results depend on the processing

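The count of 2 genes past the threshold held under the pseudocounts of 0.1 and 5, both filters and both rescalings, became 1 with only the 8 HFD libraries, and rose to 3926 with library weights, which gave mutant replicate 1 a weight of 0.329 and control replicate 4 one of 0.228. Leaving out 1 library gave between 2 and 141 genes. The counts were 141 without mutant replicate 1, 5 without control replicate 4, 4 without control replicate 3 and 3 without control replicate 1, and Rps7 and Rps7-ps3 were called each time. With the series term the count was 1 without the filter (Rps7). With 1 of the 8 HFD libraries left out, it was 1 without control replicate 2 or 3 or mutant replicate 2, 3 or 4. It was 2 without control replicate 1. Without mutant replicate 1 or control replicate 4, the difference rests on 1 library of a genotype, so no count is given. In these 8 series-term fits Rps7 was called each time and Rps7-ps3 never (adjusted p between 0.0712 and 0.5998). Chosen after seeing the data, the higher series alone gave 24 genes, and leaving out mutant replicate 1 and control replicate 4 together, which makes genotype and series one and the same, gave 2688. At an unadjusted p under 0.05, 4.77% of genes higher and 3.83% lower became 2.34% and 2.13% with the series term, 8.08% and 1.5% without the 20 most abundant genes in the total, and 23.4% and 19.7% with library weights. With only the 8 HFD libraries and the series term, 2.75% were higher, and without the most abundant genes and with the series term, 1.26% were lower. With 1 library left out, the shares ranged from 2.56% (without mutant replicate 2) to 12.4% (without control replicate 4) higher and from 1.94% to 11.5% lower. With the series term they ranged from 1.82% to 4.71% higher and from 1.6% to 3.32% lower, lowest without control replicate 4 and highest without mutant replicate 1. No gene named by rule changed direction under these alternatives. Rps7-ps3 had an adjusted p of 0.149 with only the 8 HFD libraries, while 13 further named genes passed without mutant replicate 1. The causes were not tested. No paired analysis was possible because the labels give no replicate numbers.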
